A study of Mus musculus with 32 samples.

Results

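The 65 genes described here encode the enzymes with which a cell removes superoxide, peroxides and reactive electrophiles, together with glutathione synthesis, the thioredoxin system and the selenoproteins. They were taken by symbol from the 13175 genes of the table: all names beginning with Prdx, Gpx, Glrx, Mgst, Selen or Txnrd, the glutathione transferases (Gsta, Gstk, Gstm, Gsto, Gstp, Gstt and Gstz), and 13 single genes from Sod1 to Keap1. By role they comprised 3 superoxide dismutase and catalase genes, 7 peroxiredoxin genes with sulfiredoxin, 6 glutathione peroxidases, 5 genes of the thioredoxin system, 8 of glutaredoxins and glutathione synthesis, 21 glutathione transferases, 12 with the prefix Selen and 3 of the NRF2 axis. Selenbp1 was included by its name, although it encodes a selenium-binding protein and no selenoprotein.

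RNA came from 32 single oocytes of wild-type mice, and every group shared the same encapsulated culture of isolated preantral follicles. In the fresh groups the follicles went into culture directly, and in the vitrified groups they had first been cooled into a glass-like state for storage. Germinal vesicle (GV) oocytes, which are grown but not yet dividing, were taken on day 8 (4 from fresh and 4 from vitrified follicles), and metaphase II (MII) oocytes, the mature eggs, on day 9 after ovulation had been induced with hCG, the hormone that mimics the ovulatory surge (12 and 12). The strain and age of the mice, and the mouse or culture behind each oocyte, are not given in the sources used here, so p-values measure the spread between these oocytes, which may share an animal.

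As background, superoxide dismutases turn superoxide into hydrogen peroxide, which catalase, peroxiredoxins and glutathione peroxidases reduce to water. Thioredoxin and glutathione return the oxidised enzymes to their working state and are themselves recharged with NADPH. The transcription factor NRF2, made from Nfe2l2 and held in check by the adaptor KEAP1, switches on many of these genes. In a grown oocyte transcription is largely silent, so between the GV and MII stages transcripts are mainly stored, degraded or given new poly(A) tails. Because the libraries were primed on poly(A), transcript number and tail length both enter a value and cannot be told apart.

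Total counts ran from 10357543 to 17687247 in GV and from 5300210 to 12206521 in MII oocytes. Values are given in CPM, read counts scaled to a common library size, with TMM factors over all 32 oocytes, so they are relative to the other RNA of each oocyte. A median of 57.5 of the 65 genes was detected in fresh GV oocytes, 55 in vitrified GV, 49 in fresh MII and 46.5 in vitrified MII oocytes. All GV values were whole numbers, whereas 11.7% to 19.7% of the values of each MII oocyte were not, so stage and the authors' way of making the values cannot be told apart. GV and MII libraries also carry separate ranges of library numbers, so stage and library-number range cannot be told apart either. The oocyte markers fixed for the label check, Gdf9 and Bmp15 among 13, were all detected in each group. Their summed levels were 10754 to 19533 CPM in GV and 11395 to 26082 CPM in MII oocytes. Of these markers Figla was at most 1.78 CPM in any MII oocyte, against 35.2 to 92.2 CPM in GV oocytes. It was at 0 in vitrified MII replicates 4 and 10.

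The library of fresh MII replicate 11 stood apart. Of 25 markers of granulosa and cumulus cells, the somatic cells around the oocyte, 21 were in the table. Their summed level was 150 to 349 CPM in GV oocytes, 1519 to 9071 CPM in fresh MII oocytes and 1989 to 4681 CPM in vitrified MII oocytes. Serpine2 made up most of the median sum in MII oocytes, with medians of 2467 and 2561 CPM against 140.3 and 137.7 CPM in GV oocytes. The other 20 markers together reached 67.3 to 136 CPM in GV oocytes, 64.6 to 198 CPM in the other 11 fresh MII oocytes, 69.7 to 869 CPM in vitrified MII oocytes and 5414 CPM in replicate 11. In replicate 11 Hsd3b1, a steroid-making enzyme of these cells, was at 2262 CPM and Inha at 1676 CPM, while Areg was at 0. The 4 theca and stroma markers in the table summed to at most 16.9 CPM in any oocyte, and the 1 blood marker to at most 11.2 CPM. Called stage fold changes that moved by over 1.5 times without this oocyte are given both ways. Group means and SDs below include it. In the other 11 fresh MII oocytes the mean was 0.374 CPM for Cat, 0.611 for Gss, 2.62 for Gsr and 5.14 for Prdx3.

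Selenoproteins are the members whose sequence shows how they are made: they carry selenocysteine, an amino acid with selenium in place of sulfur, which is read from a TGA codon that elsewhere means stop. An annotated selenocysteine codon was present in 17 of the 65 genes. The 10 such genes that passed the test for stage in both treatments are shown with up to 18 bases on each side of the codon, from GENCODE M21 transcripts on GRCm38, in the direction of the gene. Capitals mark the selenocysteine TGA. The first 5 were higher in MII than in GV oocytes and the last 5 were lower.
Gpx3: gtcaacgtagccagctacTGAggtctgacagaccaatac
Selenof: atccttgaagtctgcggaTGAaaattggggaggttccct
Selenoi: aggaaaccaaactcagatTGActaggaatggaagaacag
Selenoo: gcagaactctgtgtaacaTGAtcctca
Txnrd1: atcctccagtctggctgcTGAggt
Gpx4: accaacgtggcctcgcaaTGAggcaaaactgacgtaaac
Selenow: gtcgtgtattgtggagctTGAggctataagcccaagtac
Selenot: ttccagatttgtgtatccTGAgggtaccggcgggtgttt
Selenoh: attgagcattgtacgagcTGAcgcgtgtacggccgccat
Txnrd3: attactcagaaaggctgcTGAggc
In Gpx3 and Gpx4 the codon, whose selenocysteine is the catalytic residue, stood at position 73 of 226 and 197 codons. In Txnrd1 it was codon 498 of 499, in Txnrd3 614 of 615 and in Selenoo 665 of 667, next to the end of the protein. Selenow carried it at codon 13 of 88 and Selenof at codon 93 of 162. Of the 17 genes with such a codon, all tested, 5 passed as higher and 6 as lower in fresh MII oocytes. Of the 43 tested genes without one, 6 were higher and 17 lower. In vitrified oocytes the counts were 5 and 5, against 7 and 16. Over all genes tested 22.8% were higher and 29.8% lower in fresh oocytes, and 23.3% and 33.7% in vitrified ones, and the counts of the 17 genes were near these shares.

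The question of stage, how MII oocytes differ from GV oocytes, gave the differences past the test. In fresh oocytes 11 of the 60 members tested were higher in MII and 23 were lower, by edgeR's quasi-likelihood test at an adjusted p of 0.05. Over all 11470 genes tested 22.8% were higher and 29.8% were lower. In vitrified oocytes, which share no library with the fresh ones, 12 members were higher and 21 lower, against 23.3% and 33.7% of all genes. Calls in either direction made up 52.6% of all genes in fresh and 57% in vitrified oocytes. At an unadjusted p under 0.05 there were 34 and 35 members, beside 57.3% and 61% of all genes. The MII and GV groups did not overlap in 22 of the 65 members in fresh oocytes (all genes tested: 12.5% higher, 18.5% lower) and in 21 in vitrified ones (13.2% and 20.7%). For members both directions are counted together. Of the tested members 18.3% were higher and 38.3% lower in fresh oocytes, and in vitrified oocytes 20% and 35%. The share lower was above that of all genes in fresh oocytes and close to it in vitrified ones, and the share higher was slightly below in both. The median log2 fold change of the tested members was −0.04 in fresh and −0.29 in vitrified oocytes, beside −0.23 and −0.34 for all genes. Without fresh MII replicate 11 the fresh median was −0.77 for members, with 21 up and 39 down, and −0.33 for all genes. The members called in both treatments numbered 32, each in the same direction: 11 higher and 21 lower. Selenom and Txn2 passed in fresh oocytes alone and Mgst3 in vitrified oocytes alone, and no member passed the test of the difference between the treatments.

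**Figure D1:**
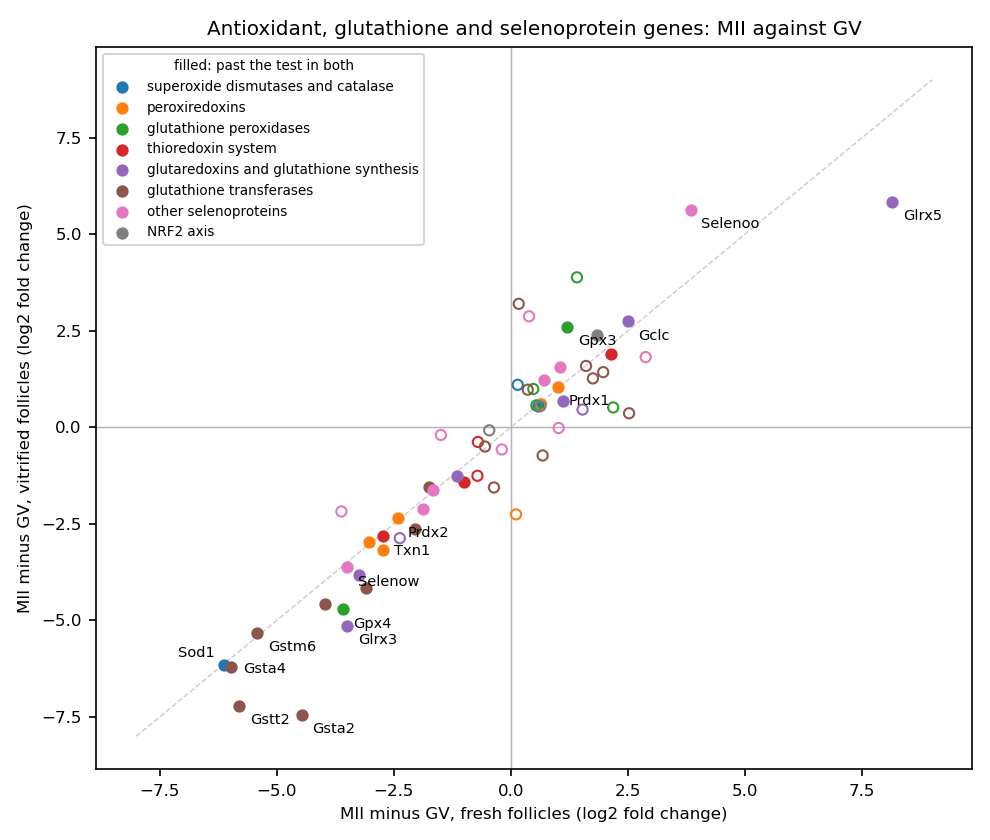
Log2 fold change of MII against GV in fresh (horizontal) and vitrified (vertical) oocytes for the 60 genes tested, coloured by role, with filled points for genes past the test in both and a dashed line of equal change. Sod1 and Gsta4 lie at the lower left near −6 on both axes, and Glrx5 at the upper right, at 8.15 and 5.84.

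The 5 members not tested for stage had too few counts: Srxn1, which reactivates overoxidised peroxiredoxins, and the transferases Gsta3, Gstm4, Gstm7 and Mgst2. Srxn1 and Mgst2 were at 0 in all fresh GV oocytes, and Mgst2 also in all vitrified oocytes of both stages.

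The cytosolic superoxide dismutase gene Sod1 (chromosome 16, 90220754 to 90226329) fell steeply in both treatments. Fresh GV oocytes held 558, 862, 325 and 883 CPM, and vitrified GV oocytes 246, 389, 717 and 488 CPM. Fresh MII oocytes ranged from 3.66 to 22.4 CPM (median 7.75) and vitrified MII oocytes from 3.84 to 11.6 CPM (median 6.05). All 24 MII oocytes thus lay far below all 8 GV oocytes. The log2 fold change was −6.13 ± 0.33 (SE) in fresh oocytes (edgeR adjusted p = 7.51e-17) and −6.16 ± 0.33 in vitrified oocytes (edgeR adjusted p = 5.53e-17). The mitochondrial enzyme gene Sod2 moved the other way. It had 63.4 ± 20.4 CPM in fresh GV and 95.3 ± 25.1 CPM in fresh MII oocytes (SD, n = 4 and 12), a log2 fold change of 0.59 ± 0.23 (edgeR adjusted p = 0.0287). The vitrified value was 0.55 ± 0.23 (edgeR adjusted p = 0.036), the groups overlapped, and both calls were lost with the library total as the scale (0.23 and 0.07). They were also lost without single oocytes, with adjusted p up to 0.147 in fresh and 0.15 in vitrified oocytes. Catalase (Cat) was near the limit of detection, with 0.674 ± 0.451 CPM in fresh GV and 0.752 ± 1.37 CPM in fresh MII oocytes.

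Prdx1 and Prdx2 were among the most abundant members, and the order of their group means changed with stage. Prdx2 (chromosome 8, 84969587 to 84974834), a cytosolic peroxiredoxin, had 1869, 2640.1, 1849 and 3017 CPM in fresh GV oocytes and 1237, 2500.4, 2451 and 2721 CPM in vitrified ones. In MII oocytes it ranged from 229 to 689.6 CPM (median 353) after fresh and from 255 to 815 CPM (median 386) after vitrified culture. The groups did not overlap, and Prdx2 fell by 2.42 on the log2 scale in fresh oocytes (SE 0.25, edgeR adjusted p = 6.47e-10) and by 2.35 in vitrified oocytes (SE 0.25, edgeR adjusted p = 9.23e-10). Its exons share 11.5% of their bases with Junb and Rnaseh2a on the opposite strand, whose reads cannot be told from its own without strand.

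Prdx1 (chromosome 4, 116685544 to 116700822), the other main cytosolic peroxiredoxin, rose. Fresh GV oocytes held 1622, 1226, 2319.9 and 1368 CPM and vitrified GV oocytes 2537, 1871, 1137 and 1628 CPM. Fresh MII oocytes spanned 2197 to 4839 CPM (median 3122) and vitrified MII oocytes 1967 to 6520.3 CPM (median 3822). The GV oocytes with the most Prdx1, fresh replicate 3 and vitrified replicate 1, reached into the MII range. In both of them Prdx1 was already above Prdx2 (2319.9 against 1849 CPM, and 2537 against 1237 CPM). They also had the most Ccnb1, a cyclin, of their groups (1475 and 2442 CPM). The log2 fold change of Prdx1 was 1.02 ± 0.27 (edgeR adjusted p = 0.002) and 1.05 ± 0.27 (edgeR adjusted p = 0.00129). Within MII oocytes of library numbers 20 and over the vitrified call was lost (0.65, edgeR adjusted p = 0.0809).

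Per kilobase of all annotated exons of a gene combined, Prdx2 was first of the 65 genes in fresh GV oocytes with 768 ± 190.4 CPM per kb. Prdx1 had 537 ± 159.6, after Gsta4. That length can exceed the transcript present, and the order of genes depends on it. It was 3043 bases for Prdx1 and 3050 for Prdx2, but 1266 for Gsta4, 1097 for Mgst3 and 1278 for Gstm5. In fresh MII oocytes Prdx1 was first with 1086 ± 301 CPM per kb and Prdx2 had 144 ± 57.4, below Mgst3 and Gstm5. The summed level of all members was 9057 ± 1095 CPM in fresh GV and 6501 ± 1583 CPM in fresh MII oocytes. Prdx1 supplied 17.9% of that sum in fresh GV and 50.7% in fresh MII oocytes, and in vitrified oocytes 20.9% and 54.6%. The share of Prdx2 went from 26.1% to 6.73% in fresh and from 26.1% to 6.55% in vitrified oocytes.

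Both mitochondrial peroxiredoxin genes fell. Prdx3 went from 71.4 ± 33.9 to 8.77 ± 13 CPM in fresh oocytes (log2 fold change −3.03 ± 0.54, edgeR adjusted p = 1.47e-05) and from 42.2 ± 13.8 to 5.43 ± 3 CPM in vitrified ones (−2.96 ± 0.55). Without fresh MII replicate 11, which held 48.7 CPM, the fresh fall of Prdx3 was −3.79. Prdx5, which also acts in peroxisomes, fell by 2.72 ± 0.52 and 3.18 ± 0.52 on the log2 scale, and shares 19.1% of its exonic bases with Trmt112 on the opposite strand. Prdx6, a peroxiredoxin that works with glutathione, had 34.3 ± 9.92 CPM in fresh GV and 53.7 ± 37.1 CPM in fresh MII oocytes and did not pass (edgeR adjusted p = 0.3). Prdx4, the secreted and endoplasmic reticulum form, had a mean of 11.3 CPM in fresh MII oocytes, of which replicate 11 alone held 109 CPM against a median of 0.798.

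**Figure D2:**
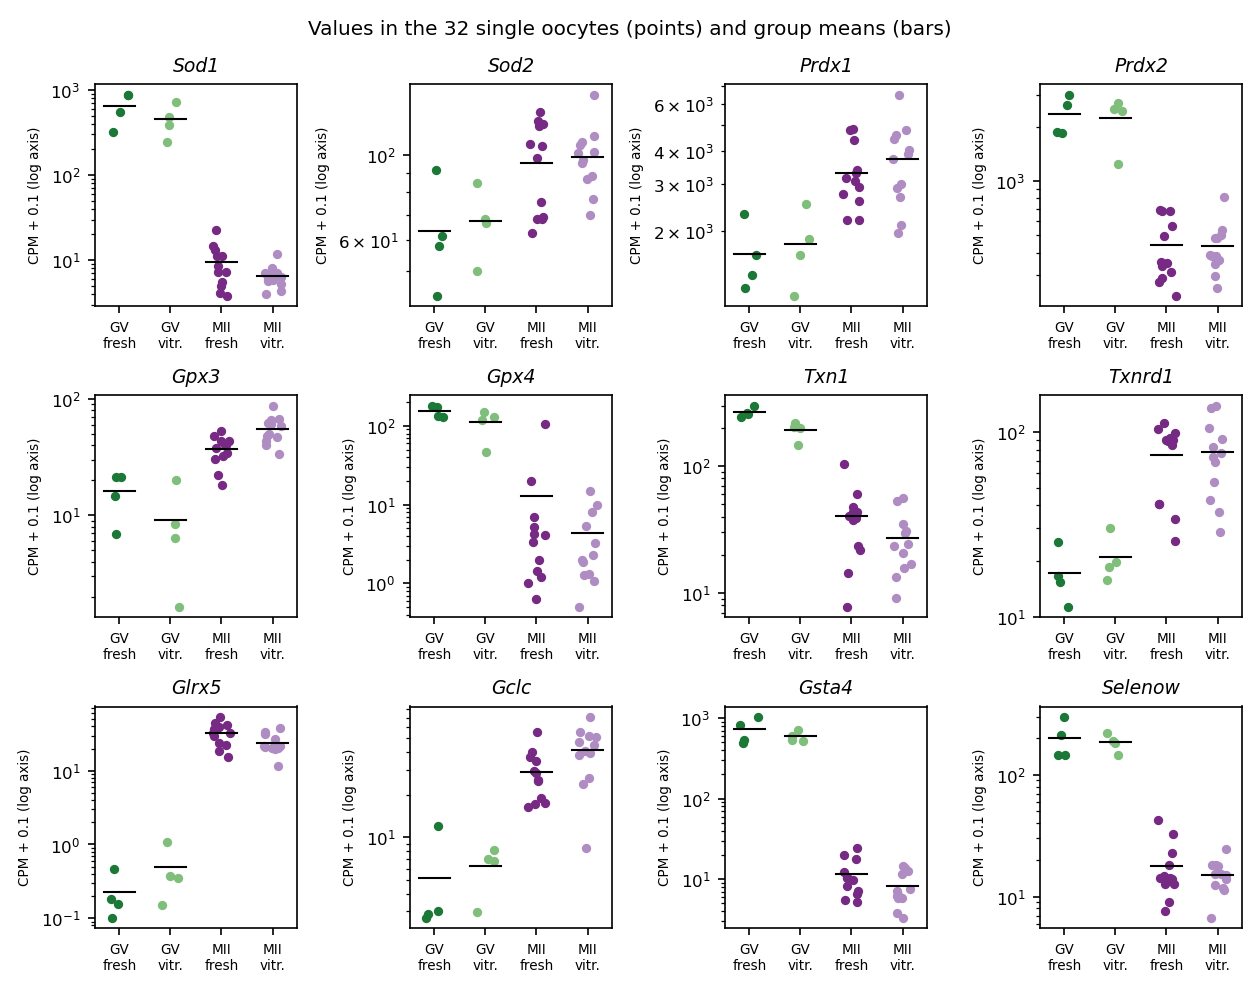
CPM plus 0.1 on log axes, each with its own range, for 12 members in the 4 fresh GV, 4 vitrified GV, 12 fresh MII and 12 vitrified MII oocytes. Points are oocytes and bars are group means. Sod1, Prdx2, Gpx4, Txn1, Gsta4 and Selenow sit lower in MII oocytes, and Prdx1, Gpx3, Txnrd1, Glrx5 and Gclc higher. The fresh MII point of Gpx4 at 105 CPM is replicate 11.

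Among glutathione peroxidases the genes for the lipid-repairing and the secreted enzyme went in opposite directions. Gpx4 (chromosome 10, 80047166 to 80056439), the selenoenzyme that reduces lipid peroxides in membranes, had 181, 129.6, 172 and 132 CPM in fresh GV oocytes and 47.1, 118, 149 and 129 CPM in vitrified ones. Its MII values ran from 0.536 to 105 CPM (median 3.65) in fresh and from 0.397 to 14.9 CPM (median 2.02) in vitrified oocytes. No MII oocyte reached its GV group, but replicate 11 of the fresh MII oocytes supplied 68.1% of that group's sum. The log2 fold change was −3.58 ± 0.81 in fresh oocytes (edgeR adjusted p = 0.000353), −5.08 without replicate 11, and −4.70 ± 0.84 in vitrified oocytes (edgeR adjusted p = 1.14e-05). With only the 5 fresh and 5 vitrified MII oocytes of library numbers 20 and over, replicate 11 among them, the fresh value of Gpx4 was −2.68 (edgeR adjusted p = 0.0591).

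Gpx3 (chromosome 11, 54902453 to 54910377), the secreted selenoenzyme, had 14.6, 21.5, 6.82 and 21.2 CPM in fresh GV oocytes and 1.52, 8.3, 20.1 and 6.29 CPM in vitrified ones. Its MII range was 18.2 to 53.2 CPM (median 39) after fresh and 33.5 to 87.8 CPM (median 54.5) after vitrified culture. The vitrified groups did not overlap, while fresh groups did. Gpx3 rose by a log2 fold change of 1.21 ± 0.38 in fresh (edgeR adjusted p = 0.00844) and 2.61 ± 0.42 in vitrified oocytes (edgeR adjusted p = 2.56e-06). The fresh call of Gpx3 was lost with the library total as the scale (0.77, edgeR adjusted p = 0.115) and when MII oocytes were limited to the later library numbers (0.95, edgeR adjusted p = 0.13), and the vitrified value was 3.35 without GV vitrified replicate 3. Gpx1, the common cytosolic form, had 38.2 ± 13.6 CPM in fresh GV and 55.8 ± 24.2 CPM in fresh MII oocytes, and Gpx6 had 39.7 ± 25.1 and 55.4 ± 21.4 CPM. Neither passed, with fresh edgeR adjusted p = 0.202 for Gpx1 and 0.428 for Gpx6. Gpx7 and Gpx8, of the endoplasmic reticulum, were at 0 in most MII oocytes (detected in 3 and 2 of 12 fresh ones) and did not pass either.

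In the thioredoxin system the substrate fell and its cytosolic reductase rose. Txn1 (chromosome 4, 57943373 to 57956411), cytosolic thioredoxin, had 263, 299.7, 243 and 255 CPM in fresh GV oocytes and 147, 199.8, 204 and 219.8 CPM in vitrified ones. MII oocytes ranged from 7.63 to 105 CPM (median 39.7) in the fresh group and from 9.04 to 56 CPM (median 23.7) in the vitrified group, all below GV. Txn1 fell by 2.72 on the log2 scale in fresh (SE 0.38, edgeR adjusted p = 1.7e-07) and by 2.82 in vitrified oocytes (SE 0.38, edgeR adjusted p = 7.4e-08). Txnrd1 (chromosome 10, 82833951 to 82897712), the cytosolic reductase, had 16.4, 11.1, 15.3 and 25.3 CPM in fresh GV oocytes and 15.7, 18.4, 30.2 and 19.7 CPM in vitrified ones. It ranged from 25.6 to 112 CPM (median 89.6) in fresh MII and from 28.5 to 139 CPM (median 75.1) in vitrified MII oocytes. The lowest MII oocytes came near the highest GV oocyte of each treatment, and the vitrified groups overlapped. Its log2 fold change was 2.14 ± 0.42 (edgeR adjusted p = 4.7e-05) and 1.89 ± 0.41 (edgeR adjusted p = 0.000172).

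The mitochondrial pair was quieter. Txn2 went from 151 ± 27 to 92.9 ± 22.9 CPM in fresh oocytes, where it passed (−0.70 ± 0.21, edgeR adjusted p = 0.00523), and from 121 ± 43.2 to 93.3 ± 17.6 CPM in vitrified ones, where it did not (edgeR adjusted p = 0.129). The fresh call of Txn2 was lost with MII oocytes of library numbers 20 and over (−0.58, edgeR adjusted p = 0.109) and with replicates 1 to 4 of each group alone (−0.39, edgeR adjusted p = 0.28). Its reductase Txnrd2 was below 1 CPM on average in every group. Txnrd3, the thioredoxin-glutathione reductase known from testis, fell by 1.00 ± 0.41 in fresh oocytes and 1.41 ± 0.41 in vitrified ones. The fresh call of Txnrd3 had an edgeR adjusted p = 0.0391 and was lost when any of 6 single oocytes was left out (adjusted p up to 0.355).

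Of the 4 glutaredoxins, among which Glrx and Glrx2 use glutathione to reduce mixed disulfides, Glrx5 rose and Glrx, Glrx2 and Glrx3 fell. Glrx5 (chromosome 12, 105032688 to 105042906), the mitochondrial glutaredoxin of iron-sulfur cluster assembly, was almost absent at GV: fresh oocytes held 0.081, 0, 0.369 and 0.054 CPM, 7 counts in all, and vitrified ones 0.268, 0.252, 0.997 and 0.051 CPM, 32 counts in all. In MII oocytes it ranged from 15.3 to 54.1 CPM (median 32.4) in fresh and from 11.5 to 38.4 CPM (median 21.5) in vitrified groups. All MII oocytes lay above all GV oocytes. The fitted log2 fold change of Glrx5 was 8.15 ± 0.72 (edgeR adjusted p = 1.24e-11) and 5.84 ± 0.62 (edgeR adjusted p = 6.24e-10), and its size depends on the few GV counts: without GV fresh replicate 3 it was 9.17 and without GV vitrified replicate 3 it was 6.93. Glrx, the cytosolic form, fell from 1023 ± 354 to 459.8 ± 191 CPM in fresh oocytes (−1.15 ± 0.29, edgeR adjusted p = 0.00105). Glrx3, which carries iron-sulfur clusters in the cytosol, fell from 87.8 ± 40.9 to 7.83 ± 12.7 CPM (−3.49 ± 0.68, and −4.35 without fresh MII replicate 11). Glrx2 of mitochondria, at 6.56 ± 2.45 CPM or less, had −3.23 ± 1.19 in fresh oocytes (edgeR adjusted p = 0.0217). Its value was −4.41 without fresh MII replicate 11, and its call was lost without GV fresh replicate 3 (adjusted p = 0.0597) and with MII library numbers from 20 upward (−2.44, adjusted p = 0.201). In vitrified oocytes Glrx2 had −3.83 ± 1.20, with −4.78 without MII vitrified replicate 12 and −3.11 without GV vitrified replicate 1. That call of Glrx2 too was lost with the later library numbers (−3.32, adjusted p = 0.0864). Without the 2 GV oocytes highest in Ccnb1, fresh replicate 3 and vitrified replicate 1, both calls of Glrx2 were lost (adjusted p = 0.0666 and 0.0508).

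Both subunits of glutamate-cysteine ligase, the limiting enzyme of glutathione synthesis, rose. The catalytic subunit gene Gclc (chromosome 9, 77754535 to 77794485) had 11.9, 2.91, 2.76 and 2.59 CPM in fresh GV and 2.86, 8.1, 6.93 and 6.74 CPM in vitrified GV oocytes. Its MII range was 16.3 to 55.1 CPM (median 26.8) in fresh and 8.24 to 71 CPM (median 42.7) in vitrified oocytes. The groups did not overlap, although the lowest vitrified MII oocyte was close to the highest vitrified GV oocyte. Gclc had a log2 fold change of 2.49 ± 0.47 in fresh (edgeR adjusted p = 3.3e-05), 3.37 without GV fresh replicate 1, and 2.74 ± 0.48 in vitrified oocytes (edgeR adjusted p = 8.84e-06).

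The modifier subunit gene Gclm had 19.4, 23.6, 20.5 and 18.6 CPM in fresh GV and 36.5, 25.6, 32.8 and 28 CPM in vitrified GV oocytes. In MII oocytes it ranged from 27.3 to 61.3 CPM (median 44) in fresh and from 22.5 to 65.8 CPM (median 51.1) in vitrified groups. Fresh groups did not overlap, and vitrified groups did. Its log2 fold change was 1.12 ± 0.25 in fresh (edgeR adjusted p = 0.000248) and 0.67 ± 0.24 in vitrified oocytes (edgeR adjusted p = 0.0171). The vitrified call of Gclm was lost without GV vitrified replicate 2 or 4 (adjusted p up to 0.0664) and with the library total as the scale (0.22). Glutathione synthetase Gss (5.91 ± 4.13 CPM in fresh GV, 1.14 ± 2.27 CPM in fresh MII) and glutathione reductase Gsr (1.4 ± 0.835 and 4.09 ± 5.38 CPM) did not pass.

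Glutathione transferases, which couple glutathione to electrophiles, were called lower in 8 of 17 tested (47.1%) in each treatment, beside 29.8% of all genes in fresh and 33.7% in vitrified oocytes. None was called higher in fresh oocytes and 1, Mgst3, was in vitrified oocytes (all genes: 22.8% and 23.3%). The 8 were the same in both: Gsta2, Gsta4, Gstk1, Gstm6, Gsto2, Gstt1, Gstt2 and Gstz1. Gsta4 (chromosome 9, 78182774 to 78209349), which handles the lipid peroxidation product 4-hydroxynonenal, was the most abundant of them at GV. It held 538, 492, 1043 and 817 CPM in fresh GV and 712, 540.3, 522 and 597 CPM in vitrified GV oocytes. MII oocytes ranged from 5.16 to 24.6 CPM (median 9.95) in fresh and from 3.18 to 14.4 CPM (median 6.61) in vitrified groups. No group overlapped across stage, and Gsta4 fell by 5.98 on the log2 scale in fresh (SE 0.33, edgeR adjusted p = 2.01e-16) and by 6.20 in vitrified oocytes (SE 0.34, edgeR adjusted p = 7.73e-17).

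Gstt2 went from 74.1, 96.5, 93.2 and 91.3 CPM in fresh GV oocytes to a range of 0 to 4.61 CPM in fresh MII oocytes (median 1.18). In vitrified oocytes it went from 42.7, 114, 171 and 129 CPM to at most 1.99 CPM. Its log2 fold change was −5.80 ± 0.62 in fresh and −7.20 ± 0.66 in vitrified oocytes. Gstm6 fell by 5.41 ± 0.76 in fresh and 5.31 ± 0.77 in vitrified oocytes, and Gstz1, which also serves tyrosine breakdown, by 1.75 ± 0.39 and 1.54 ± 0.40. Gstk1 of mitochondria and peroxisomes fell by 3.08 ± 0.73 and 4.17 ± 0.75, and Gsto2, which also reduces dehydroascorbate, by 2.05 ± 0.47 and 2.64 ± 0.46. The fresh call of Gsto2 was lost with MII library numbers from 20 upward (−1.36, edgeR adjusted p = 0.0659). The remaining calls came from low levels. Gsta2 was at 3.1 ± 2.34 CPM in fresh GV and 0.131 ± 0.213 CPM in fresh MII oocytes (−4.47 ± 0.99), and its vitrified value of −7.44 was −8.47 without MII vitrified replicate 12. Gstt1 was at 1.12 ± 0.723 and 0.0632 ± 0.151 CPM (−3.97 ± 1.16, and −4.92 without MII fresh replicate 9). In vitrified oocytes Gstt1 had −4.57, with −6.00 without MII vitrified replicate 9 and −3.89 without GV vitrified replicate 2. Both calls of Gstt1 were lost with MII library numbers from 20 upward (−2.71 in fresh, edgeR adjusted p = 0.137, and −3.49 in vitrified oocytes, edgeR adjusted p = 0.0555). Gsta2, Gstm6 and their relatives have near-identical copies, and the handling of reads that fit several copies is not stated in the labels. Gstm5, an abundant transferase known from testis, had 256 ± 149 CPM in fresh GV and 409.8 ± 254 CPM in fresh MII oocytes, with a log2 fold change of 0.68 ± 0.46 that did not pass (edgeR adjusted p = 0.218). Mgst3, a membrane-bound relative, had 335 ± 83 CPM in fresh GV and 430.4 ± 132 CPM in fresh MII oocytes. In vitrified oocytes Mgst3 went from 239 ± 18.8 to 469 ± 165 CPM and passed (0.97 ± 0.26, edgeR adjusted p = 0.00202). That call was lost with the library total as the scale (0.46, edgeR adjusted p = 0.0596) and with MII library numbers from 20 upward (0.52, edgeR adjusted p = 0.093).

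Of the 12 members with the prefix Selen, 3 were higher in both treatments. Selenof, a selenoprotein of the endoplasmic reticulum, went from 152 ± 89 to 316 ± 79.2 CPM in fresh (1.05 ± 0.28, edgeR adjusted p = 0.00184) and from 139.6 ± 42.4 to 415 ± 123 CPM in vitrified oocytes (1.57 ± 0.29). Selenoi, an enzyme of phospholipid synthesis, had a log2 fold change of 0.70 ± 0.26 in fresh (edgeR adjusted p = 0.0242) and 1.23 ± 0.27 in vitrified oocytes. The fresh call of Selenoi was lost without GV fresh replicate 3 or 4 and with the library total as the scale (0.28). Selenoo, a mitochondrial enzyme that attaches AMP to proteins, went from 0.443 ± 0.466 to 6.31 ± 3.62 CPM in fresh oocytes (3.85 ± 0.89, edgeR adjusted p = 0.000441). Its value was 4.47 without GV fresh replicate 4, and 5.64 in vitrified oocytes, or 6.71 without GV vitrified replicate 3. Of its exonic bases, 26.7% are shared with Tubgcp6 on the opposite strand.

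Selenow (chromosome 7, 15917208 to 15922402), a small thioredoxin-like selenoprotein, fell with no overlap. Fresh GV oocytes held 145, 213, 146 and 299.5 CPM, and vitrified GV oocytes 191, 145, 182 and 218 CPM. In MII oocytes it ranged from 7.53 to 42.1 CPM (median 14.2) in fresh and from 6.56 to 24.4 CPM (median 15.1) in vitrified groups. The log2 fold change was −3.49 ± 0.29 (edgeR adjusted p = 3.89e-12) and −3.62 ± 0.29 (edgeR adjusted p = 1.45e-12). Selenot of the endoplasmic reticulum (−1.88 ± 0.32 in fresh, −2.12 ± 0.32 in vitrified) and nucleolar Selenoh (−1.66 ± 0.36 and −1.62 ± 0.36) also fell. Selenom was called lower in fresh oocytes at 1.77 ± 1.79 CPM or less (−3.62 ± 1.47, edgeR adjusted p = 0.0379). Leaving out any of 12 single oocytes removed that call (adjusted p up to 0.174), and without fresh MII replicate 11 the value was −6.23. Selenok, part of protein quality control in the endoplasmic reticulum, stood at 166 ± 42.8 CPM in fresh GV and 145 ± 50.6 CPM in fresh MII oocytes (edgeR adjusted p = 0.559).

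In the NRF2 axis the gene of the factor itself rose. Nfe2l2 (chromosome 2, 75675513 to 75704641) had 15.4, 6.69, 16.9 and 3.93 CPM in fresh GV and 10.6, 9.21, 1.21 and 13.1 CPM in vitrified GV oocytes. It ranged from 16.3 to 60.2 CPM (median 37) in fresh MII and from 25.1 to 88.8 CPM (median 37.3) in vitrified MII oocytes. The vitrified groups did not overlap, and in the fresh groups the lowest MII oocyte lay just below the highest GV oocyte. Its log2 fold change was 1.83 ± 0.46 (edgeR adjusted p = 0.00116) and 2.39 ± 0.48 (edgeR adjusted p = 7.09e-05). Keap1 (3.97 ± 2.85 CPM in fresh GV, 6.16 ± 4.9 CPM in fresh MII) did not pass. Nqo1, a quinone reductase and well-known NRF2 target, had 43.7 ± 8.81 and 31.8 ± 3.83 CPM and did not pass either (edgeR adjusted p = 0.177).

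The antioxidant response element, the site that NRF2 binds, has the core TGACNNNGC. It was searched on both strands of the RefSeq promoter windows (GRCm38.p6, 250 bases before to 50 after each start), which were on hand for 60 of the 65 genes. The core was found in 11 of these genes (18.3%), beside 16.6% of the 10582 genes of the table with a window and 14% of all 27025. The looser form TGANNNNGC, of which every core match is also a match, was found in 43.3% of the members and 47.8% of the table's genes. Of the members with a window, 4 of 10 called higher in fresh oocytes held the core (Gclm, Nfe2l2, Prdx1 and Txnrd1), and 1 of 21 called lower (Sod1). Over all genes tested the shares were 18.3% of those higher and 15.8% of those lower. The matches of these 5 genes are shown because they fall in genes past the test in both treatments, each read 5′ to 3′ on the minus strand with the core in capitals.
Prdx1 (chr4:116685451-116685489): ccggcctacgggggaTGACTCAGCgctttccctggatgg
Txnrd1 (chr10:82859099-82859137): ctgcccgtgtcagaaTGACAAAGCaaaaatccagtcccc
Gclm (chr3:122245408-122245446): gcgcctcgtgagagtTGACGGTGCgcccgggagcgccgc
Nfe2l2 (chr2:75704880-75704913): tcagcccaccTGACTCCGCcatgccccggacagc
Sod1 (chr16:90220691-90220729): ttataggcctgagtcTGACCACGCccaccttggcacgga
Nfe2l2 is itself on the minus strand and the other 4 genes are on the plus strand. A match describes the letters of the window and is no evidence of binding.

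The cytoplasmic polyadenylation element, which marks stored transcripts for a longer tail during maturation, was searched as TTTTAT or TTTTAAT in the last 100 bases of the annotated transcripts. It was present in 8 of the 65 members (12.3%) and in 19.2% of the 13040 genes with a transcript. Over all genes it was more frequent among those called higher in fresh MII oocytes (30.5%) than among those called lower (11%). Of the members, 2 of 11 called higher held it (Nfe2l2 and Txnrd1) and 2 of 23 called lower (Glrx2 and Selenoh). In Nfe2l2 it is followed directly by a poly(A) signal, ATTAAA, and both are in capitals in this 30-base stretch.
Nfe2l2: gaacaggaaatgacatTTTTATATTAAAtt

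The other genes of these pathways, from 5 lists of 56 genes, also moved in both directions: 11 of 50 tested were higher and 19 lower in fresh MII oocytes, and 15 and 19 in vitrified ones. These are 22% and 38% in fresh oocytes (all genes: 22.8% and 29.8%), and 30% and 38% in vitrified ones (all genes: 23.3% and 33.7%). Their median log2 fold change was −0.33 in fresh and −0.08 in vitrified oocytes. Among 8 tested genes of the selenocysteine machinery 3 were higher and 2 lower in fresh oocytes. Sephs2, which makes the selenium donor, went from 24 ± 8.43 to 278 ± 113 CPM (3.54 ± 0.40, edgeR adjusted p = 2.77e-09), and Secisbp2l, a relative of the protein that recognises selenoprotein messages, from 80.4 ± 7.74 to 575 ± 154.5 CPM (2.84 ± 0.28). Pstk, which prepares the selenocysteine tRNA, fell by 3.36 ± 0.59. Among 9 genes of NADPH supply 4 were higher and 3 lower: Idh1 rose by 2.76 ± 0.43, while G6pdx, the entry to the pentose phosphate pathway, fell from 359 ± 78.1 to 148 ± 53.4 CPM (−1.28 ± 0.22).

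NRF2 partners and other targets had 1 gene higher (7.14%) and 5 lower (35.7%) of 14 in fresh oocytes. Over all genes tested, 22.8% were higher and 29.8% lower in fresh oocytes. The higher gene was Slc3a2, a subunit of the cystine importer, at 1.98 ± 0.22. Cul3 and Rbx1, parts of the ligase through which KEAP1 acts, fell by 1.33 ± 0.28 and 1.68 ± 0.26, and Bach1, a repressor at NRF2 sites, by 2.41 ± 0.42. Of 13 tested thiol repair and thioredoxin-related genes 1 was higher and 7 lower, with Txnip, which binds thioredoxin, at 1.43 ± 0.27 and Park7, a redox-sensing chaperone, at −4.65 ± 0.41. In glutathione breakdown and transport 2 of 6 were higher and 2 lower, among them Ggt1, which cleaves glutathione outside cells, at −5.74 ± 0.75.

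Scaling set how many members counted as higher. With the library total in place of TMM, the median log2 fold change of all genes was −0.61 in fresh and −0.81 in vitrified oocytes, and 8 members were higher and 25 lower in fresh and 9 and 27 in vitrified oocytes. Over all genes that scale gave 1992 higher and 4142 lower in fresh oocytes (2615 and 3413 with TMM). Without the 4 MII oocytes with cumulus transcripts in an earlier analysis (fresh replicates 1 and 11, vitrified replicates 1 and 12), 10 members were higher and 29 lower of 54 tested in fresh oocytes. The median log2 fold change in fresh oocytes was then −0.97 for members and −0.38 for all genes. Vitrified MII replicate 7 was kept there, although it also held cumulus transcripts. Inha was 40.3, Gja1 27.2 and Fst 20.3 CPM in it, against 49.7, 21.5 and 1.92 CPM in vitrified MII replicate 1. The direction of Sod1, Sod2, Prdx1, Prdx2, Gpx3, Gpx4, Txn1, Txnrd1, Glrx5, Gclc, Gclm, Gsta4, Selenow and Nfe2l2 was the same under each scale. Fold changes are relative to all other RNA, since absolute amounts were not measured. Members whole-valued in all 24 MII oocytes gave 5 higher and 16 lower of 37 tested in fresh oocytes, and the other 23 gave 6 and 7. Among the other 23 were Prdx5, Prdx2, Prdx1, Gclm and Txnrd1, with values not whole in 24, 20, 18, 14 and 10 MII oocytes.

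Vitrification was the question of the study, and within GV oocytes it gave no call among these genes. By edgeR 0 of 54 members tested passed, as did 0 of all 10831 genes (0%), and at an unadjusted p under 0.05 there were 0 members and 180 genes (1.66%). DESeq2 and limma-voom also called 0 members. The median log2 fold change of the 54, vitrified minus fresh, was −0.11, beside 0.00 for all genes. The 95% interval lay between −1 and 1 for 11 of 54 members and 2052 of 10831 genes, so larger differences were not measured precisely enough to be bounded for most. Abundant genes were among the better measured: Prdx2 had −0.06 ± 0.32, Prdx1 0.15 ± 0.33, Sod2 0.11 ± 0.33 and Selenow −0.11 ± 0.30 (SE).

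In 2 members the fresh and vitrified GV groups did not overlap, as in 0.692% of all genes with vitrified higher and 1.36% with vitrified lower. Gclm was higher in all vitrified GV oocytes, as the values above show, at a log2 fold change of 0.60 ± 0.34 (edgeR p = 0.103, adjusted p = 1). Txn1 was lower in all of them, at −0.45 ± 0.26 (edgeR p = 0.106, adjusted p = 1). The smallest p belonged to Prdx3, with 54.7, 57.7, 122 and 51.1 CPM in fresh and 49.5, 54.5, 23.1 and 41.9 CPM in vitrified oocytes (−0.74 ± 0.39, edgeR p = 0.0819, adjusted p = 1). Sod1 had −0.50 ± 0.39 and Gpx4 −0.46 ± 0.35 (SE), and neither passed the test.

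**Figure D3:**
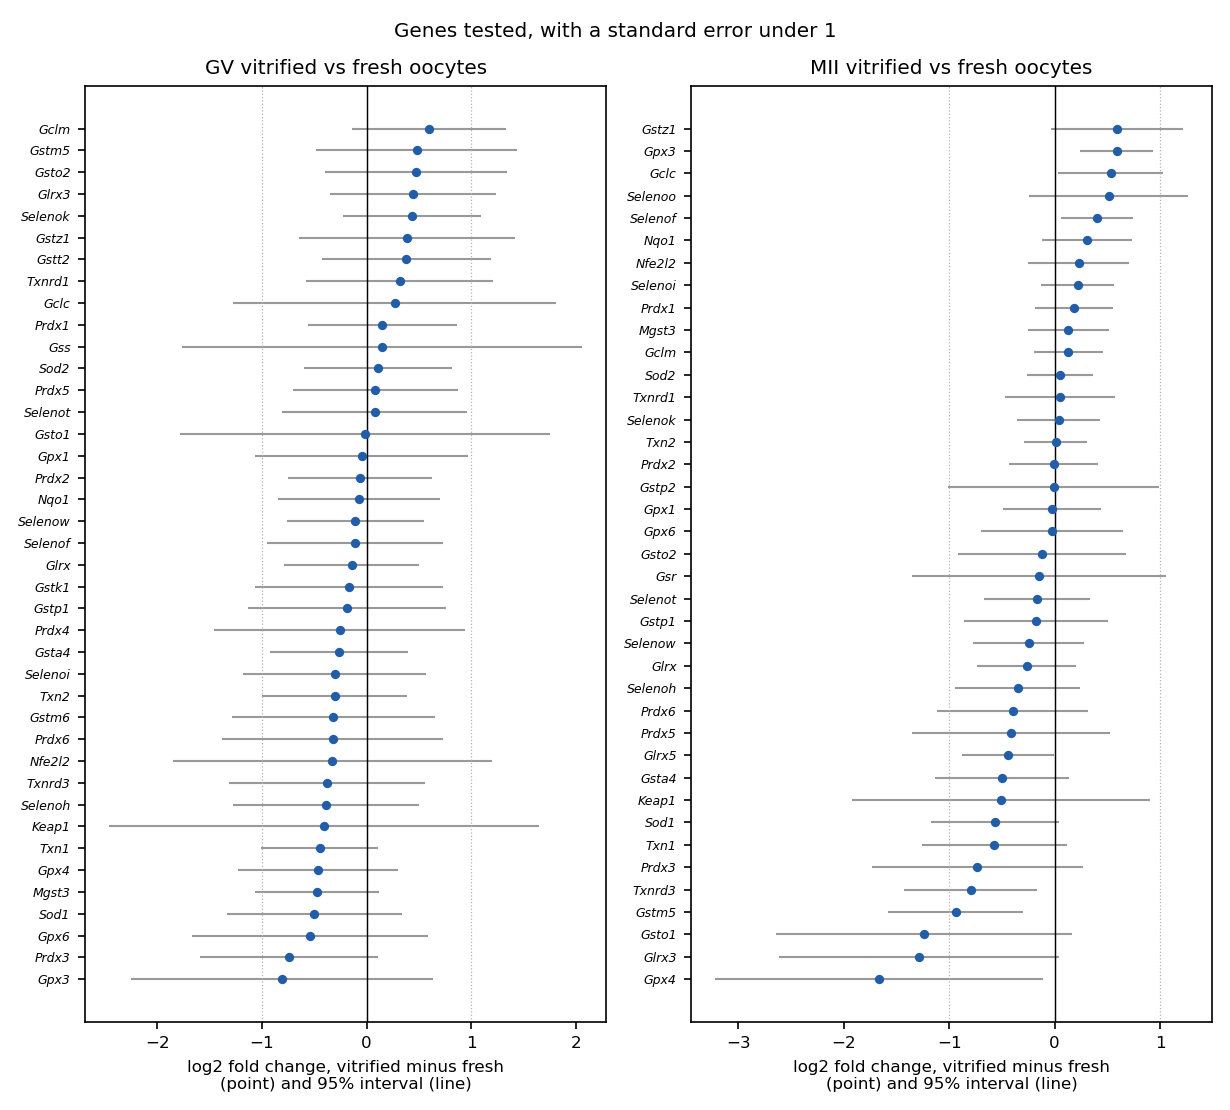
Log2 fold change of vitrified against fresh oocytes (points) with 95% intervals (lines) for the genes tested in GV (left) and MII oocytes (right) with a standard error under 1. Dotted lines mark −1 and 1. In GV oocytes every interval shown spans 0, and in MII oocytes those of 7 genes do not, from Gpx4 at −1.66 to Gpx3 at 0.59.

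Within MII oocytes 0 of 39 members tested passed by edgeR, as did 0 of 8428 genes (0%). DESeq2 called 51 of 7254 genes (0.703%), and neither DESeq2 nor limma-voom called a member. At an unadjusted p under 0.05 there were 7 members of 39 (17.9%), beside 12.5% of all genes. The median was −0.12, beside −0.05 for all genes, and −0.0016 without fresh MII replicate 11, where 4 members had an unadjusted p under 0.05. The interval lay between −1 and 1 for 22 of 39 members and 5378 of 8428 genes. Prdx1 (0.18 ± 0.18), Sod2 (0.06 ± 0.15), Txn2 (0.01 ± 0.15), Gclm (0.13 ± 0.16), Selenok (0.04 ± 0.19) and Txnrd1 (0.05 ± 0.25) were each within 1 log2 unit of 0 by their intervals.

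Gpx3 had the smallest p. Its mean over 12 oocytes was 37 ± 10.2 CPM (SD) without vitrification and 55.4 ± 14.7 CPM after it. The groups overlapped, and the log2 fold change was 0.59 ± 0.17 (edgeR p = 0.00176, adjusted p = 0.197). It was 0.55 without fresh MII replicate 11, 0.35 among library numbers under 20 and 0.97 among those of 20 and over. The DESeq2 value was 0.59 with an adjusted p of 0.0519. Gstm5 had the next smallest: 147 to 804 CPM (median 309) in fresh and 87 to 548 CPM (median 179.5) in vitrified oocytes. Its 5 highest oocytes, all above 600 CPM, were fresh, while the rest of both groups intermingled. The log2 fold change of Gstm5 was −0.94 ± 0.31 (edgeR p = 0.0057, adjusted p = 0.257), with −0.85 and −1.10 in the lower and upper library numbers. Its exons share 13.9% of their bases with 4933431E20Rik on the opposite strand.

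The other 5 at an unadjusted p under 0.05 were Txnrd3 (−0.80 ± 0.31), Selenof (0.40 ± 0.17), Gpx4 (−1.66 ± 0.76), Gclc (0.53 ± 0.24) and Glrx5 (−0.44 ± 0.21), with edgeR adjusted p = 0.3 to 0.396. Without fresh MII replicate 11, 3 of the 7 had an unadjusted p above 0.05. Gpx4 was then −0.05 ± 0.58 (edgeR adjusted p = 0.981), and DESeq2 gave −0.02 over all oocytes. Glrx5 was −0.33 ± 0.21 (edgeR p = 0.121) and Gclc 0.49 ± 0.25 (edgeR p = 0.057). Selenof was 0.66 within library numbers under 20 and −0.07 within those of 20 and over, and Nqo1 was 0.64 and −0.43. Gclc was 0.15 and 1.03.

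The test of the difference between the treatments' stage effects called 0 of 60 members, with 3 at an unadjusted p under 0.05, beside 0 of 11470 genes called (0%) and 4.07% unadjusted. DESeq2 called 8 genes and none was a member. The 3 were Glrx5 (−2.31 ± 0.74, edgeR adjusted p = 0.91), Gpx3 (1.40 ± 0.51, edgeR adjusted p = 0.946) and Gstm5 (−1.41 ± 0.63, edgeR adjusted p = 1).

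Fresh MII replicate 11 held the highest value of its group in 27 of the 65 members (41.5%), beside 23.6% of all genes, and over 50% of the group's summed CPM in 16 members (24.6%), beside 10.5% of all genes. Glrx3 was only just among them, at 47 CPM against a mean of 4.27 CPM in the other 11. Microsomal transferase Mgst1 was 303 CPM there and 2.93 CPM on average in the other 11, Gstm2 69.6 and 0.227, Gstm1 54.4 and 0.103, Selenos 58.2 and 0.722, and Gpx7 42.7 and 0.693. Prdx1 (3316 CPM there), Gclc, Gclm, Gpx1, Gpx3, Gpx6, Glrx and Gstm5 were not at their highest in it. Mgst1 also reached 82.8 CPM in vitrified MII replicate 12, against a group median of 0.405. The granulosa and cumulus markers other than Serpine2 were also highest in these 2 libraries, and their part in these levels was not tested.

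**Figure D4:**
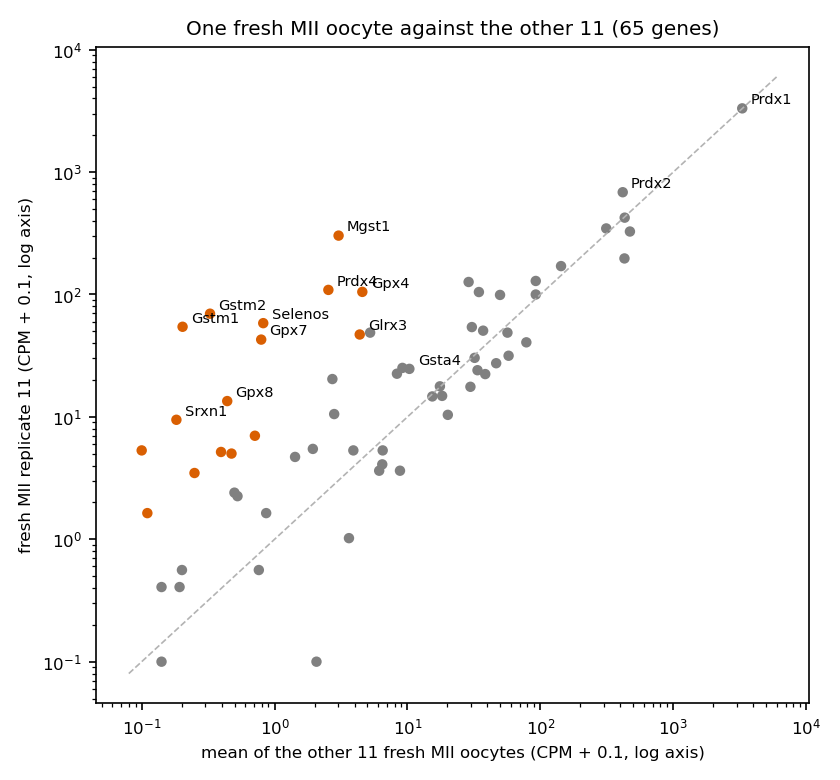
CPM plus 0.1 of the 65 genes in fresh MII replicate 11 (vertical) against the mean of the other 11 fresh MII oocytes (horizontal), on log axes, with a dashed line of equality. Orange points are the 16 genes for which replicate 11 held over 50% of the group's sum. Mgst1, at 303 CPM, lies far above the line and Prdx1 on it.

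Prdx1, the most abundant member in MII oocytes, was set against 21 other members with a mean of at least 20 CPM in MII oocytes, by Spearman's rho over 24 oocytes, as a description without a test. Of the 21 values, 4 were below 0, and the lowest was −0.88 with Txnrd1. With Txn1 rho was 0.59. The pair with Txnrd1 was picked after its value was seen. For Txnrd1 it was −0.78 in fresh and −0.88 in vitrified oocytes, −0.84 and −0.92 within the lower and upper library numbers, and −0.89 on the library total. Pearson's r was −0.85 in all and in 22 oocytes without the 2 farthest from the median of Prdx1. Txnrd1 was 25.6 CPM in the fresh oocyte with 4785 CPM of Prdx1 and 112 CPM in the fresh oocyte with 2197 CPM. Gclc (−0.51) shared the negative sign in every subset, and Mgst3 (0.81), Nqo1 (0.67) and Selenok (0.67) the positive sign. Since all values of an oocyte share 1 library and its total, such values do not show regulation.

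**Figure D5:**
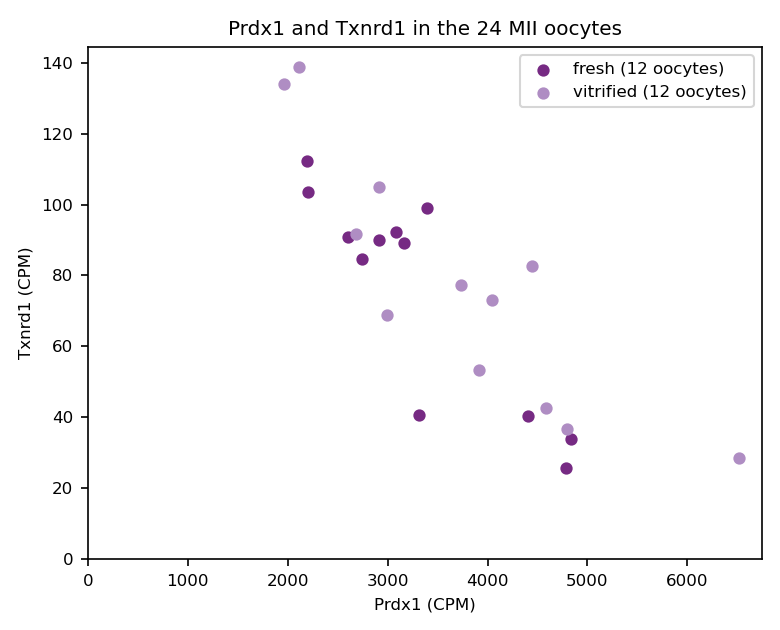
CPM of Txnrd1 (vertical) against Prdx1 (horizontal) in 12 fresh and 12 vitrified MII oocytes, 1 point per oocyte. Both treatments follow the same downward band, from 1967 CPM of Prdx1 with 134 CPM of Txnrd1 to 6520.3 CPM with 28.5 CPM.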

How the data were processed

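Single-oocyte RNA-seq libraries were described for 32 oocytes, with 4 per treatment at GV and 12 per treatment at MII. The submitters' processing notes name HISAT2, featureCounts and mm10, without versions. Per the deposited table, GV values are whole counts, whereas 11.7% to 19.7% of each MII oocyte's values are not whole and were treated as the authors' expected counts, rounded to the nearest whole number, although the tests were planned for counts. Of 13202 deposited rows 27 exact repeats were removed, and every gene totalled at least 10 over the MII oocytes.

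Tests used edgeR 4.0.16 in R 4.3.3 (quasi-likelihood F test, TMM, filterByExpr with a minimum count of 10 and total of 15, Benjamini-Hochberg adjustment over all genes tested, threshold 0.05). GV and MII oocytes each had a separate fit for vitrified against fresh, and stage effects and their difference came from 1 fit of 32 oocytes. DESeq2 1.42.0, limma-voom (limma 3.58.1), other scalings and filters, single omissions, library-number runs and a replicate block were alternatives. Omission of 2 GV oocytes high in Ccnb1, and replicates 1 to 4 without a block, were chosen after seeing the data. Code was tested on simulated data.

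Members and lists were chosen with earlier results of these data known. Members given in detail were those listed by name in the design (among them Sod1, Prdx1, Gpx4, Gclc and Nfe2l2) and, per role and stage comparison, up to 4 with the smallest p. Promoter windows came from RefSeq (GRCm38.p6, 60 of 65 matched), and exons and transcripts from GENCODE M21 (65 matched).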

Additional observations from a re-analysis of the deposited data

Results flagged for a closer look

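Dixon's test was applied to 72 groups of 4 GV oocytes, and its rate of about 5% by chance assumes independent, normally distributed values. These genes share libraries and some lie near 0, so the number of cases cannot be compared with that rate. In 8 cases 1 oocyte lay far from the other 3. Fresh GV replicate 3 accounted for 3 of them: Glrx was 1550 CPM there against 803 to 903 CPM in the others, Prdx3 122.2 CPM against 51.1 to 57.7 CPM, and Selenof 284.7 CPM against 91.1 to 121 CPM. In fresh GV replicate 1 Gclc was 11.95 CPM, with 2.59 to 2.91 CPM in the others, and Gpx7 was 2.552 CPM, with 0.184 to 0.54 CPM in the others. Gpx1 was low in fresh GV replicate 2, at 18 CPM against 42.7 to 47.4 CPM. In vitrified GV replicate 3 Gpx1 was high, at 73.31 CPM against 22 to 28.9 CPM, and Cat was 1.256 CPM with 0 in the other vitrified GV oocytes.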

How the results depend on the processing

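Leaving out each oocyte in turn gave 10 to 11 members higher and 21 to 24 lower in fresh MII oocytes, and 10 to 13 and 21 to 24 in vitrified ones. Calls of vitrified against fresh and of the interaction were 0 among members under every alternative run. Called in every alternative were 8 of 11 higher and 15 of 23 lower members in fresh oocytes, and 8 of 12 and 19 of 21 in vitrified ones. Selenof in MII oocytes reversed within library numbers of 20 and over, at −0.067 (adjusted p = 0.964), and the cause was not tested. Over all genes, DESeq2 called 1 gene higher in GV oocytes, 23 higher and 28 lower in MII oocytes, and 7 and 1 for the interaction, where edgeR called 0. The library total, or 1 fit of all 32 oocytes, gave 1 gene lower in MII oocytes. DESeq2 size factors gave 3 genes higher for the interaction, and single omissions up to 4. A minimum mean of 10 CPM left 2403 genes lower of 6444 in vitrified oocytes, with fewer genes tested. With the replicate block 10 members were higher and 19 lower of 59 in fresh oocytes, and 10 and 23 in vitrified ones (11 and 21, and 10 and 22, in the same oocytes without it). Under the block the median log2 fold change was −1.32 for members and −0.37 for all genes in fresh oocytes. In vitrified oocytes it was −1.60 and −0.57. The fresh call of Glrx was lost under the block (−0.81, adjusted p = 0.0518). Fresh and vitrified oocytes of the same replicate number correlated from −0.38 to 0.28, and 1 of 16 pairs matched best with its own number. Pairing by library number was not examined. Such correlations cannot show whether oocytes shared an animal or a culture. Low counts limit 26 members not tested between treatments in MII oocytes.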
